A study of Mus musculus with 6 samples.

Results

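The RNA of 10 skeletal muscle genes was followed in dissected dental epithelium. The genes were *Myh3*, *Myh8*, *Mylpf*, *Ttn*, *Neb*, *Acta1*, *Tnnt3*, *Tnnc2*, *Actn3* and *Ckm*. They were chosen by name, for encoding sarcomere proteins or the muscle creatine kinase, and all 10 were among the 55487 gene identifiers of the table. RNA-seq covered 6 libraries of epithelium taken from mandibular first molars at PN2.5. The 3 control libraries came from Wnt10afl/fl mice. The 3 cKO libraries came from K14-Cre;Wnt10afl/fl mice, here also called mutants. In these mice the keratin 14 promoter drives Cre recombinase in stratified epithelia, so both groups carried the floxed allele and differed by Cre. Each library was a pool of several molars (4 in the deposited description, 5 in the methods), and mice were used regardless of sex. Values are in TPM, a measure of transcript abundance in which every library is scaled to one common total after division by transcript length. TPM keep no sequencing depth, so the depth of a library and the counting error of a low value are unknown.

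Skeletal muscle contracts through the sarcomere, in which myosin thick filaments pull on actin thin filaments anchored at the Z-disc. Titin and nebulin are giant proteins that span the sarcomere and the thin filament, and the troponin complex couples calcium to contraction. Around birth, mouse muscle makes the embryonic myosin *Myh3* and the perinatal myosin *Myh8*, which adult fast myosins later replace. The jaw muscles lie close to the molar tooth germs, while the enamel organ itself contains no striated muscle.

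Of the 10 muscle genes, 9 were close to 0 in most libraries. Averaged over the 6 libraries, *Mylpf* alone of the 10 reached 1 TPM. The 10 genes together summed to 6.37, 7.0 and 6.43 TPM for control replicates 1 to 3 and to 4.42, 10 and 4.83 TPM for cKO replicates 1 to 3. The control values lay close together and inside the range of the cKO values, whose highest was replicate 2. The group means were 6.60 ± 0.348 TPM (SD, n = 3) in control and 6.42 ± 3.11 TPM (SD, n = 3) in cKO, a ratio of 0.972. *Mylpf* alone made up between 54.8% and 89.0% of the sum. Without *Mylpf*, the other 9 genes summed to 1.35, 2.42 and 0.88 TPM in the control libraries and to 1.17, 4.52 and 0.53 TPM in the cKO libraries. In these bulk tissues, fewer muscle cells and less RNA per cell cannot be told apart. Apart from *Mylpf* in all libraries and *Neb* in cKO replicate 2, at 2.01 TPM, every member was below 1 TPM in every library. Across the whole table, 55.7% of 21897 protein-coding genes had a mean of at least 1 TPM, and the median mean was 2.21 TPM, against a median of 0.238 TPM over the 10 genes.

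**Figure D1:**
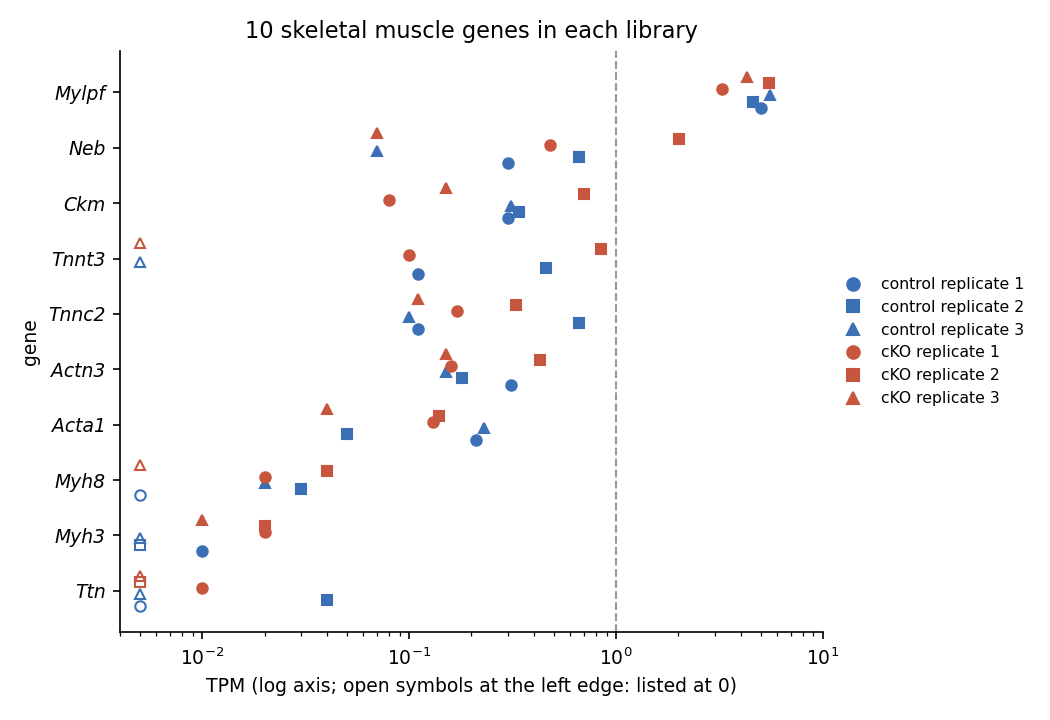
TPM of the 10 skeletal muscle genes (log axis) in the 3 control libraries (blue) and 3 cKO libraries (red), with a symbol for each replicate number, open symbols for values listed at 0 and a dashed line at 1 TPM. *Mylpf* lies between 3.25 and 5.55 TPM in all 6 libraries, and *Neb* passes 1 TPM in the mutants replicate 2 alone.

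The targeted gene follows the labels. *Wnt10a*, a secreted Wnt ligand, was 56.0, 51.2 and 57.9 TPM in the controls and 22.7, 21.8 and 32.2 TPM in the mutants. The groups did not overlap, as for 9.64% of the 13719 genes tested. Its log2 fold change was -1.10 with a standard error of 0.19 (limma, unadjusted p = 0.000653, adjusted p = 0.747). *Wnt10a* was thus not called at an adjusted p below 0.05.

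The thick filament genes held both the highest and some of the lowest values. *Mylpf* encodes the phosphorylatable fast regulatory light chain that binds the neck of the myosin head. It was 5.02, 4.58 and 5.55 TPM for control replicates 1 to 3 and 3.25, 5.48 and 4.30 TPM for cKO replicates 1 to 3. The groups overlapped, with the highest value in control replicate 3 and the lowest in cKO replicate 1 (exact permutation test, two-sided, p = 0.4). The fold change of *Mylpf* was -0.20 in log2(TPM + 1), with a standard error of 0.23 and a 95% interval from -0.75 to 0.35 (limma, unadjusted p = 0.424, adjusted p = 1.00 over 13719 genes). *Myh3*, the embryonic heavy chain, was listed at 0.01, 0 and 0 TPM in the controls and at 0.02, 0.02 and 0.01 TPM in the mutants. *Myh8*, the perinatal heavy chain, was listed at 0, 0.03 and 0.02 TPM in the controls and at 0.02, 0.04 and 0 TPM in the mutants. All values in the table are whole steps of 0.01 TPM, so these entries are no more than 4 steps from 0. Neither developmental myosin reached 0.1 TPM in any library.

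The 250 bases before the transcription start of *Mylpf*, the gene with the highest level, and of *Acta1*, the skeletal actin gene that was near 0, are shown to set the sequence of a measured gene beside that of a gene listed at low values. They are RefSeq sequences of GRCm38.p6, chr7:127211358-127211607 on the forward strand and chr8:123894776-123895025 on the reverse strand, written in the direction of transcription, and the capitals mark E-boxes and the CArG box.
Mylpf: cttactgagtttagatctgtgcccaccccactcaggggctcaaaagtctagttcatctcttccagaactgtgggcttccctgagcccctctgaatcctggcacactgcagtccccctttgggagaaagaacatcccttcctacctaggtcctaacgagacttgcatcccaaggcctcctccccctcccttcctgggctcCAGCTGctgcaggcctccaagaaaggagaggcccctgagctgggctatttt
Acta1: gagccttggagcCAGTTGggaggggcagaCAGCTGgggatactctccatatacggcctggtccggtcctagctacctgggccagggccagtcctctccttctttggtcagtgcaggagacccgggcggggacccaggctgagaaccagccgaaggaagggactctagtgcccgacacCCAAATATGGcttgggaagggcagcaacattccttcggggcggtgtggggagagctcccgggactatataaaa

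The E-box, CANNTG, is the site bound by myogenic factors such as MyoD, and reads the same on both strands. The *Mylpf* window held 1 E-box and the *Acta1* window held 2, with 1 CArG box, the site of serum response factor, in *Acta1*. Sequences were found for 7 of the 10 genes (*Acta1*, *Ckm*, *Myh3*, *Myh8*, *Mylpf*, *Tnnc2* and *Ttn*). An E-box was present in all 7 of these windows and in 66.2% of 32851 windows of the same length before annotated starts. The TATA box, TATAAA on either strand, was in 3 of the 7 windows (*Acta1*, *Myh3* and *Myh8*) and in 12.4% of all windows. The CArG box and the MEF2 site were searched on both strands, and the letters of a MEF2 site can overlap those of a TATA box. The CArG box was in 1 of the 7 and in 1.47% of all, and the MEF2 site in 2 of the 7 (*Myh8* and *Ttn*) and in 2.92% of all. These matches describe letters in a window, and the genes that held them ranged from 0.00833 TPM for *Ttn* to 4.70 TPM for *Mylpf* in the mean of the 6 libraries.

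The thin filament genes among the members were below 1 TPM in every library. *Acta1*, which encodes the actin of the skeletal thin filament and is among the most abundant messages of a muscle fibre, was 0.21, 0.05 and 0.23 TPM in the controls and 0.13, 0.14 and 0.04 TPM in the mutants. In the same libraries *Mylpf* was between 23.9 and 108 times as high as *Acta1*. *Tnnt3*, the fast troponin T that ties the complex to tropomyosin, was 0.11, 0.46 and 0 TPM in the controls and 0.10, 0.85 and 0 TPM in the mutants. The highest value of each group was in replicate 2 and the value of replicate 3 was listed at 0 in both. *Tnnc2*, the fast calcium-binding troponin C, was 0.11, 0.66 and 0.10 TPM in the controls and 0.17, 0.33 and 0.11 TPM in the mutants, again with the highest value of each group in replicate 2. In the GENCODE annotation of GRCm38, 74.0% of the exon bases of *Tnnc2* also lie in exons of *Ube2c*, a ubiquitin-conjugating enzyme gene of the cell cycle on the opposite strand. *Ube2c* was between 21.0 and 52.0 TPM, and without strand information reads of the 2 genes could be confused. The gene *Galnt2l*, on the opposite strand, spans *Acta1* but shares none of its exon bases.

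Of the giant scaffold genes, *Neb* varied most between libraries and *Ttn* was near 0. *Neb*, the nebulin gene on chromosome 2 (52136647 to 52378474), was 0.30, 0.66 and 0.07 TPM in the controls and 0.48, 2.01 and 0.07 TPM in the mutants. Its SD over the 6 libraries was 0.56 on the log2(TPM + 1) scale, the largest of the 10 genes, and the value for *Mylpf* was 0.23. *Ttn*, the titin gene, was listed at 0, 0.04 and 0 TPM in the controls and at 0.01, 0 and 0 TPM in the mutants. TPM divide by length, and the longest transcripts of *Ttn* and *Neb* have 106824 and 22489 bases, against 766 bases for *Mylpf*. Multiplied back by these lengths, *Neb* took an approximate 0.839 to 22.9 ppm of the fragments and *Mylpf* 1.36 to 2.32 ppm. On that scale *Ttn* reached 2.03 ppm in control replicate 2 and 0.584 ppm in cKO replicate 1, with 0 in the other 4 libraries. The order of the genes thus depends on the scale, with *Mylpf* first per transcript and *Neb* first per fragment in the mean of the 6 libraries.

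*Actn3* and *Ckm* completed the group. *Actn3*, the fast fibre actinin of the Z-disc, was 0.31, 0.18 and 0.15 TPM in the controls and 0.16, 0.43 and 0.15 TPM in the mutants. *Ckm*, the cytosolic creatine kinase that buffers ATP in muscle, was 0.30, 0.34 and 0.31 TPM in the controls and 0.08, 0.70 and 0.15 TPM in the mutants. The cKO values of both genes enclosed the control values or overlapped them. In order of mean level the genes were *Mylpf*, *Neb*, *Ckm*, *Tnnt3*, *Tnnc2*, *Actn3*, *Acta1*, *Myh8*, *Myh3* and *Ttn*. Apart from *Mylpf*, whose lowest library lay above every library of every other member, the ranges of neighbours in this order overlapped.

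None of the 10 members was called different between the groups. With genes of a mean of at least 1 TPM tested, *Mylpf* was the single member in the fit, and it was not called at an adjusted p below 0.05, which 0.0146% of the tested genes passed. It was also not called under the criteria of the methods (p below 0.05 before adjustment, with the cKO mean over 20% away from the control mean), which 4.02% passed, and its groups overlapped, as they did for all but 9.64% of the tested genes. Without the filter on low values, 28254 genes were fitted and all 10 members entered. In that fit 0 of the 10 were called, 0 had an unadjusted p below 0.05 (limma), and the smallest was 0.379 for *Acta1*. Of all genes in that fit 3.33% met the criteria of the methods and 6.88% had no overlap between the groups, and 0 of the 10 members were among the latter. Of the 10, 5 were higher and 5 lower in cKO, and the median log2 fold change was -0.0047, against -0.019 over all genes fitted. The largest difference was that of *Neb*, 0.35 with a standard error of 0.40 on the log2(TPM + 1) scale, which understates changes of low genes. The *Neb* difference rested on cKO replicate 2, at 2.01 TPM. In cKO replicates 1 and 3 *Neb* was 0.48 and 0.07 TPM, within the control range of 0.07 to 0.66 TPM.

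Values high in replicate 2 recurred among the members. *Neb*, *Ckm*, *Tnnt3*, *Tnnc2* and *Myh8* were highest in replicate 2 within the control group and within the cKO group, so that 5 of 10 members had this pattern. The same held for 41.8% of the 13719 tested genes, for 21.9% of genes above 0 with a mean below 1 TPM, and for 7 of the 68 other muscle genes above 0 in some library, from the lists described next (10.3%). In control replicate 2, 23203 genes were above 0, and 21686 and 20722 in control replicates 1 and 3. In cKO replicates 1, 2 and 3 the numbers were 22895, 23036 and 20185. *Amelx*, the main enamel matrix gene, took 8.65% of the TPM of cKO replicate 2, against 16.5% to 20.6% in the other 5 libraries. The part of these differences in the muscle values was not tested. Without both libraries numbered 2, the ratio of cKO to control for the sum of the 10 genes was 0.723, and *Mylpf* was still the single member with a mean of at least 1 TPM.

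**Figure D2:**
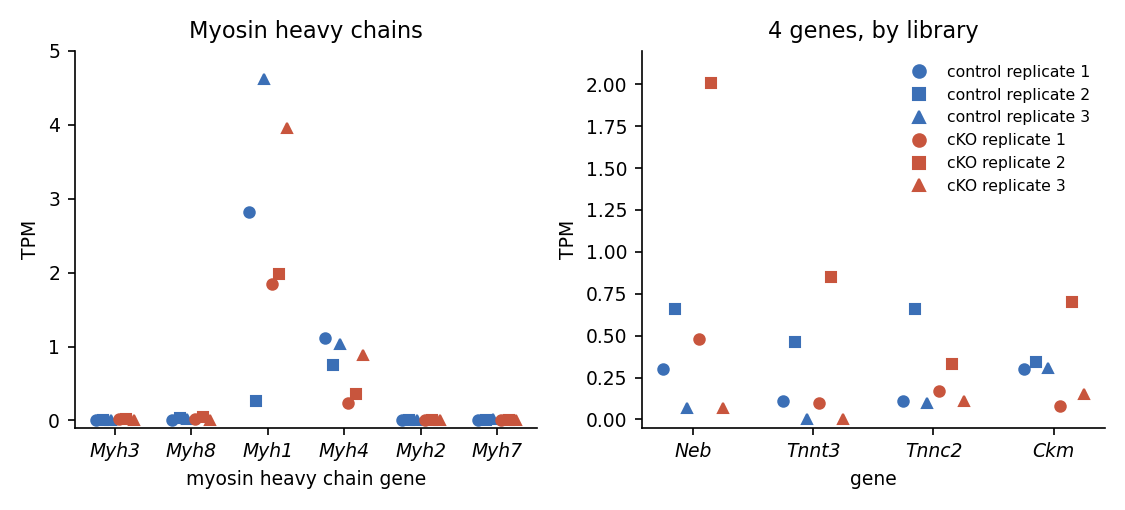
Left, TPM of 6 myosin heavy chain genes by library. Right, TPM of *Neb*, *Tnnt3*, *Tnnc2* and *Ckm*, with control libraries in blue, cKO libraries in red and a symbol for each replicate number. *Myh1* and *Myh4* stand above the developmental *Myh3* and *Myh8*, and replicate 2 (squares) is the highest of its group for each gene on the right. The genes on the right are among the 5 of 10 members with this pattern, which 41.8% of the 13719 tested genes also had.

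Among the myosin heavy chains, the developmental forms were lower than *Myh1* and *Myh4*. *Myh1*, the adult fast IIx heavy chain, was 2.82, 0.26 and 4.62 TPM in the controls and 1.85, 1.98 and 3.95 TPM in the mutants. *Myh4*, the adult IIb heavy chain, was 1.11, 0.75 and 1.03 TPM in the controls and 0.24, 0.36 and 0.88 TPM in the mutants. *Myh1* and *Myh4* exceeded *Myh3* and *Myh8* in all 6 libraries. *Myh1* made up 59.3% ± 30.1 (SD, n = 3) of the summed heavy chain TPM in the controls and 83.3% ± 2.77 (SD, n = 3) in cKO, and the low share of 25.0% in control replicate 2 set the control mean. *Myh3* and *Myh8* never took more than 0.935% and 2.88% of that sum. *Myh2* and *Myh7*, the IIa and slow heavy chains, never passed 0.02 TPM. These genes are close relatives, 5 of them in a cluster on chromosome 11. RSEM, named in the methods, divides reads shared between genes by estimate, and the submitters' notes also name StringTie. Reads shared among these genes were not measured, so their single values are uncertain. The log2 fold change of *Myh1* was 0.21 with a standard error of 0.56 (limma, adjusted p = 1.00).

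Slow troponins exceeded their fast counterparts in most libraries, with control replicate 2 as the exception for troponin C and troponin I. The slow troponin T *Tnnt1* was 3.29, 1.01 and 1.90 TPM in the controls and 1.44, 2.56 and 1.79 TPM in the mutants, above *Tnnt3* in every library. *Tnnt3* took between 0% and 31.3% of the sum of both. The share of *Tnnc2* in *Tnnc2* and *Tnnc1*, the slow and cardiac form, ran from 16.1% to 60.6%, and that of *Tnni2* in *Tnni2* and *Tnni1* from 25.6% to 76.7%, with the highest share of each of the 3 pairs in control replicate 2. Most of the values behind these shares are below 1 TPM.

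The wider muscle program was mostly below 1 TPM as well. Of 89 muscle genes listed by role, the 10 members included, 16 had a mean of at least 1 TPM and 66 never reached 1 TPM in any library. The median of the gene means was 0.1 TPM. None of the 9 myogenic regulators and fusion genes reached 1 TPM, and their summed level was between 0.06 and 0.26 TPM. *Myod1* and *Myf6*, which drive muscle differentiation, *Pax7*, the marker of muscle stem cells, and *Mymk*, which fuses myoblasts, were listed at 0 in all 6 libraries. The highest of this list was *Vgll2*, a muscle transcriptional cofactor, with a mean of 0.0617 TPM. *Actc1*, the cardiac actin that developing skeletal muscle also makes, *Trdn*, *Lmod2*, *Mybpc1*, *Cavin4*, *Chrng* and *Mstn* were also listed at 0 in all 6 libraries, which makes 11 of the 89 genes. An exact 0 can be a failed estimate, and this was not tested for the muscle genes. A set of 15 genes used by every cell was above 0 in every library, the lowest value being 14.9 TPM for *Tbp*. These genes lie far above the low muscle values, so they cannot show whether a 0 among those is a failed estimate.

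**Figure D3:**
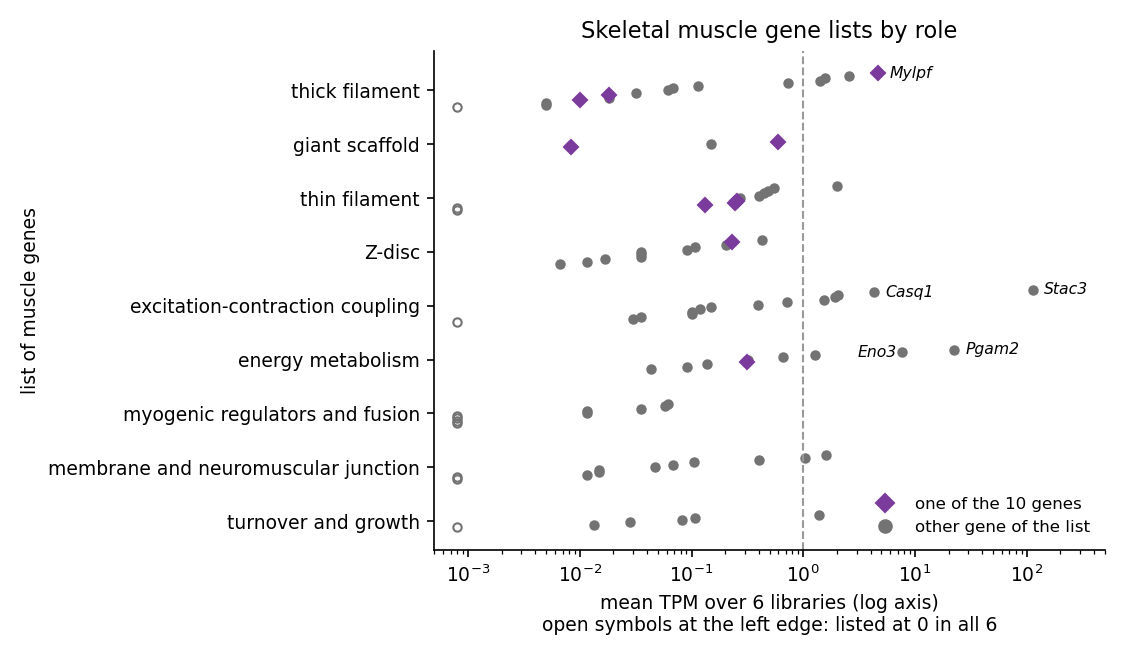
Mean TPM over 6 libraries (log axis) of 89 skeletal muscle genes grouped by role, with diamonds for the 10 members, circles for the other genes, open symbols for genes listed at 0 in all libraries and a dashed line at 1 TPM. *Stac3* and *Pgam2* lie far to the right of the remaining genes, and all 9 myogenic regulators and fusion genes lie left of the line.

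*Stac3* and *Pgam2* stood well above the members in every library. *Stac3*, an adaptor of the muscle calcium channel, was 106, 103 and 97.0 TPM in the controls and 118, 118 and 142 TPM in the mutants. The groups did not overlap, and its log2 fold change was 0.30 with a standard error of 0.15 and a 95% interval from -0.05 to 0.64 (limma, unadjusted p = 0.0799, adjusted p = 1.00). *Pgam2* and *Eno3*, muscle isoforms of 2 glycolytic enzymes, had means of 22.5 and 7.72 TPM. *Stac3*, *Pgam2* and *Eno3* together held between 76.5% and 83.3% of the summed TPM of all 89 genes in each library, so that a sum over the lists mostly follows these 3. *Casq1*, the calcium store protein calsequestrin, was between 2.85 and 5.88 TPM, while *Ryr1*, the release channel of the same store, stayed at or below 0.22 TPM. Of the other lists, the highest genes were *Myoz1* of the Z-disc at a mean of 0.427 TPM, *Chrnb1*, an acetylcholine receptor subunit, at 1.59 TPM, and *Fbxo32*, a ubiquitin ligase of muscle wasting, at 1.38 TPM. Of the 16 muscle genes tested, 0 had an adjusted p below 0.05 and 0 an unadjusted p below 0.05 (limma). Of these, 6 were higher and 10 lower in cKO, with a median log2 fold change of -0.040, against -0.066 over all genes tested. This balance depended on the scaling. After quantile normalization 9 of the 16 were higher, with a median of 0.012, and after median-ratio scaling 8, with a median of 0.0007. Without the filter on low values, *Stac3* met the criteria of the methods (limma, unadjusted p = 0.0464, adjusted p = 0.942) as 1 of 78 muscle genes in the fit, or 1.28%, against 3.33% of all genes.

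Markers of other tissues give the scale of these levels. The epithelial keratin *Krt14* was between 2190.4 and 2773 TPM, from 232 to 569 times the sum of the 10 muscle genes in the same library. The summed level of 10 enamel organ markers was between 100768 and 245854 TPM, and *Amelx* was the most abundant of them. Dental mesenchyme and odontoblast markers, led by *Col1a1*, the main collagen of dentin and bone, summed to between 3596 and 7149 TPM. Their 11 genes all had means of at least 1 TPM. *Col1a1* was from 231 to 506 times the sum of the 10 muscle genes. Osteoblast markers, led by *Bglap2*, summed to between 1498 and 3216 TPM, and erythroid markers, led by *Hbb-bs*, to between 1161 and 1978 TPM. Endothelial markers, led by *Pecam1*, summed to between 64.1 and 119.8 TPM, and immune markers, led by *Lyz2*, to between 49.97 and 71.9 TPM. In each of the 6 libraries every one of these sums was above the sum of the muscle genes. Of 66 genes tested from the lists of other cell types and other muscle, 6 met the criteria of the methods (9.09%, against 4.02% of all genes tested). Among them *Bglap* and *Bglap2*, which encode osteocalcin of bone matrix, rose in cKO, and the endothelial genes *Cdh5* and *Tek* and the globin gene *Hbb-bs* fell. The 2 osteocalcin genes were the called ones of 7 osteoblast markers, of which 5 were higher and 2 lower, with *Alpl*, the alkaline phosphatase of mineralizing cells, at a log2 fold change of -0.36. All 7 endothelial, all 5 erythroid and all 5 immune markers tested were lower in cKO, as were 9 of 10 enamel organ markers, 43 of the 66 genes and 60.3% of all genes tested. The last share was 50.3% after quantile normalization, 50.9% after median-ratio scaling and 69.6% after rescaling without *Amelx* and *Ambn*. It lay between 47.2% and 72.8% when each library was left out. The log2 fold changes of *Bglap*, *Bglap2*, *Cdh5*, *Tek* and *Hbb-bs* were 0.82, 0.66, -0.77, -0.54 and -0.43 in that order (limma, adjusted p = 1.00 for each). The part of these cell types in the muscle values was not tested. Schwann cell and nerve markers, led by *Tubb3*, summed to between 103.3 and 154 TPM, oral epithelium markers, led by *Krt6a*, to between 40.6 and 67.2 TPM, and cartilage markers, led by *Sox9*, to between 16.0 and 26.1 TPM. *Tubb3* and *Sox9* made up at least 76.9% and 90.6% of their lists, 5 of 7 and 2 of 5 genes of which had a mean of at least 1 TPM, so these sums mostly follow 1 gene each. Adipocyte markers, led by *Fabp4*, summed to between 2.92 and 7.35 TPM, a range that overlapped that of the muscle genes. Tendon and muscle connective tissue markers summed to between 14.5 and 31.9 TPM, with *Tnmd*, a tendon cell membrane protein, the highest at a mean of 7.21 TPM, and *Scx*, the tendon transcription factor, between 0.55 and 1.07 TPM.

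**Figure D4:**
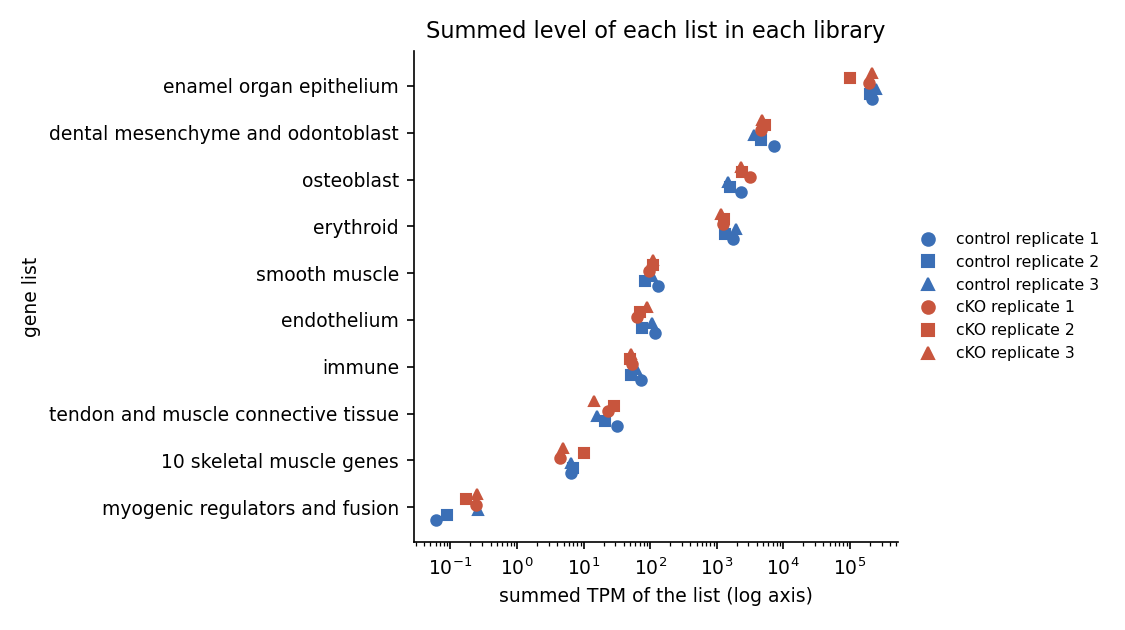
Summed TPM (log axis) of marker lists and of the 10 skeletal muscle genes in each control library (blue) and cKO library (red), with a symbol for each replicate number. The 10 muscle genes sum to between 4.42 and 10 TPM, below the 8 lists of other tissues plotted and above the myogenic regulators. Adipocyte and cardiac lists, whose ranges overlap that of the muscle genes, and the nerve, oral epithelium and cartilage lists are not plotted.

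Of the smooth muscle markers, 3 of 8 had a mean of at least 1 TPM, and of the cardiac genes 1 of 10. The smooth muscle markers summed to between 83.3 and 130.3 TPM, between 50.4% and 57.9% of it from *Acta2*, the smooth muscle actin, which had a mean of 58.0 TPM and was from 246 to 1575 times as high as *Acta1*. *Myh11*, the smooth muscle heavy chain, was between 0.46 and 1.32 TPM. The 10 cardiac genes summed to between 1.96 and 5.18 TPM, with group means of 3.16 ± 1.76 TPM in control and 3.12 ± 0.825 TPM in cKO (SD, n = 3 each). The cKO mean was the lower one for 8 of them and the higher one for 2. Among them *Tnni3*, cardiac troponin I, had a log2 fold change of 0.73 with a standard error of 0.27 (limma, unadjusted p = 0.0291, adjusted p = 1.00) and values of 0.47, 0.99 and 0.68 TPM in the controls and 1.56, 2.35 and 1.64 TPM in the mutants. *Myh6*, the atrial heavy chain, never passed 0.20 TPM and *Nppa*, the atrial peptide, never passed 0.10 TPM.

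The mean profile of the 10 genes over the 6 libraries was compared with that of 13718 other genes by Pearson's r, as a measure of likeness with no test. None of the 15 most alike genes was in the muscle lists. Of the 13718 genes compared, only 15 were from those lists, so their absence among the most alike says little. They had r from 0.977 to 0.997, and the first was *Mrpl9*, a mitochondrial ribosomal protein gene, followed by *Ptrh2*, *Mcm7*, *Dlx1* and *Cdc25b*. *Mcm7*, a subunit of the replicative helicase, was 25.0, 28.7 and 23.7 TPM in the controls and 23.0, 33.3 and 21.9 TPM in the mutants. *Cdc25b*, a phosphatase of mitotic entry, was 14.2, 17.0 and 13.7 TPM in the controls and 13.0, 24.6 and 12.6 TPM in the mutants. Like *Neb*, both were highest in replicate 2 of each group. The profile rests on 6 libraries, and the genes that varied most among the 10, *Neb* and *Tnnt3*, had SDs of 0.56 and 0.36 on the log2(TPM + 1) scale.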

How the data were processed

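RNA-seq data of 3 control and 3 cKO libraries were used, grouped by the sample titles. After trimming (SeqPrep, Sickle), the authors used HISAT2 for alignment and RSEM for abundance. The submitters' processing notes also name StringTie. Genome build, annotation and strand setting are not given in the sources used here. The values the authors deposited are TPM, with library sums between 983952 and 993946, although the methods name FPKM.

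TPM keep no depth, so precision rests on the 3 libraries per group. Whether libraries of a group came from separate litters is not stated, and p-values measure the spread between these pools. Genes whose mean reached 1 TPM were tested on log2(TPM + 1) with limma 3.58.1 in R 4.3.3 (lmFit, eBayes with a mean-variance trend), adjusted by Benjamini-Hochberg over all genes tested. Single values were compared by exact permutation, which for 3 against 3 cannot go below p = 0.1. The fit was tested on simulated data. Members, lists and tests were chosen with earlier results of these data known. The 15 genes used by every cell, the fragment share and the exon overlap were added after the values were seen. Positions and lengths come from GENCODE M21 (GRCm38), which holds 99.4% of the identifiers, and promoters from RefSeq.

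Genes named are the 10 members, *Wnt10a*, the highest gene of each list, genes of a list that met the criteria, genes behind a share and the most alike genes. *Ryr1*, *Krt14*, *Scx*, *Casq1*, *Ube2c*, *Galnt2l*, *Tbp*, *Myh11*, *Myh6*, *Nppa*, *Eno3*, *Alpl* and the genes listed at 0 were named after their values were seen. Alternatives were a pseudocount of 0.1, no filter, quantile and median-ratio scaling, rescaling without *Amelx* and *Ambn*, the replicate block, no trend, and leaving out each library.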

Additional observations from a re-analysis of the deposited data

How the results depend on the processing

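The count of members called under the criteria of the methods was 0 in limma and 0 in all 13 alternatives. All 10 members entered only the fit without the filter, and *Mylpf* was the single member tested in the others. *Mylpf* was lower in cKO in all 13, its log2 fold change running from -0.35 without cKO replicate 2 to -0.043 without cKO replicate 1. Without cKO replicate 2 its groups no longer overlapped, as for 2314 of the 13594 genes tested in that fit. In that fit 72.8% of the genes were lower in cKO. *Wnt10a* was lower in cKO in all 13, from -1.27 to -0.996. At an adjusted p below 0.05, limma called 2 genes as reported, 4 with the pseudocount at 0.1, 1 with no filter, 4 after quantile normalization, 4 with the replicate block and 2 to 9 when each library was left out. The number under the criteria of the methods was 552 (213 higher, 339 lower), 940 without the filter, 902 after rescaling without *Amelx* and *Ambn* (164 higher, 738 lower), 648 after quantile normalization (324 higher, 324 lower), 649 after median-ratio scaling (316 higher, 333 lower) and 195 to 1152 when each library was left out. With the replicate block it was 1315. The rescaling moved the median log2 fold change of all genes from -0.066 to -0.14. That median was -0.0022 after quantile normalization and -0.0065 after median-ratio scaling. It was above 0 only without control replicate 2, at 0.020. The cause of these differences was not tested. The methods speak of pairs of replicates without saying what pairs them, and the deposited columns skip the same number in both groups. The deviations of same-numbered libraries correlated across genes at -0.08, 0.29 and 0.40, and with the first below 0.1 the numbers were not taken to pair the samples. The ratio of the summed members was 0.972 and lay between 0.701 and 1.12 when each library was left out, the lowest without cKO replicate 2, and was 1.34 without *Mylpf*. That value rests on cKO replicate 2, since without *Mylpf* and that library it was 0.548. The difference in *Myh1* share, cKO minus control, was 24.0 percentage points and lay between 6.91 and 35.0 when each library was left out, with 6.91 without control replicate 2. In place of 1 member at a mean of at least 1 TPM, 2 reached 0.5 TPM and 7 reached 0.1 TPM. The sums without *Mylpf*, with or without cKO replicate 2, or without both libraries numbered 2 and the levels of 0.5 and 0.1 TPM were chosen after seeing the data. Alternatives for counts could not apply to TPM and were not run.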
